A study of Homo sapiens with 12 samples.

Results

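The genes described here encode 10 cyclins, the regulatory subunits that switch on cyclin-dependent kinases (CDKs): CCND1, CCND2, CCND3, CCNE1, CCNE2, CCNA2, CCNF, CCNB1, CCNB2 and CCNG2. They were taken by name from the 26475 gene symbols of the count table and all 10 were in it. RNA was sequenced from PA-1 cells, a human line from an ovarian teratocarcinoma grown in DMEM, and from SK-OV-3 cells, a human line from an ovarian adenocarcinoma grown in RPMI. Cells of each line received 5 µM BAY-850, an inhibitor of the chromatin regulator ATAD2, or its vehicle DMSO. The exposure to BAY-850 lasted 48 h. The labels state no time for DMSO, but the study's methods give 48 h for the control as well. Each of the 4 groups held 3 replicates, which the study's methods call biological. As each line is 1 culture line with its own medium, the line, its medium and its origin cannot be told apart.

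Cyclins are named for their periodic accumulation. D-type cyclins activate CDK4 and CDK6 in G1 and link growth signals to the phosphorylation of RB, E-type cyclins activate CDK2 at the entry into S phase, cyclin A2 serves CDK2 and then CDK1 through S and G2, and B-type cyclins activate CDK1 at mitosis. Most of these genes are transcribed in a set phase under E2F factors or under the MuvB complexes, while D-type transcripts follow growth factor signals, and CCNG2 is an atypical member that accumulates as cells leave the cycle. The counts average over all cells of a culture, so fewer cells in a phase and less RNA per cell cannot be told apart.

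The libraries held between 34544505 and 51840233 counts, and genes for ribosomal RNA took 7.94% to 16.9% of them. The marker sums set the lines apart. Levels are in CPM, the counts of a gene scaled to a common library size. The 8 markers of embryonal cells summed in PA-1 to 1513 to 1716 CPM with DMSO and 1731 to 1830 CPM with BAY-850. In SK-OV-3 they summed to 62.2 to 75.0 CPM. The 8 epithelial markers summed in PA-1 to 911 to 966 CPM with DMSO and 991 to 1037 CPM with BAY-850, and in SK-OV-3 to 3792 to 4127 and 2874 to 3352 CPM. MUC16, one of the epithelial markers, stayed at or below 1.01 CPM in every library. With DMSO, 6 of the 8 epithelial markers were higher in SK-OV-3 than in PA-1 and 2 were lower. The lower ones were KRT18 (265 against 335 CPM) and WT1 (2.03 against 4.39 CPM). ERBB2 alone held 2406 CPM in SK-OV-3 with DMSO, against 61.3 CPM in PA-1. The third SK-OV-3 library with BAY-850 stood apart, with the most counts and the fewest genes with a count (15634, against 17437 to 18440 in the other 11), and the calls of the cyclin genes in SK-OV-3 are also given without it. The 4 blood markers summed to at most 1.22 CPM in any library, and the 3 endothelial ones to 34.3 to 41.5 CPM in PA-1 and 2.73 to 4.25 CPM in SK-OV-3. The fibroblast markers summed in PA-1 to 448 to 555 CPM under DMSO and 592 to 638 CPM under BAY-850, and in SK-OV-3 to 164 to 174 and 82.7 to 110 CPM, nearly all of it COL1A1, with DCN at 0 in 10 of 12 libraries. The part of these shifts in the results below was not tested.

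In PA-1 cells, BAY-850 upregulated 2 of the 10 cyclin genes, CCND2 and CCNG2, and downregulated none at an adjusted p under 0.05. In SK-OV-3 cells it downregulated 4 of the 9 that could be tested, CCNE2, CCNA2, CCNB1 and CCNB2, and upregulated CCNG2. Across all genes, 7.13% of 15212 were called in PA-1 (4.65% higher, 2.48% lower) and 20.4% of 15348 in SK-OV-3 (10.8% higher, 9.56% lower). Scaling by library size alone moved the PA-1 split from 707 higher and 378 lower to 235 and 231, and scaling without the ribosomal RNA genes moved it to 543 and 505. The median log2 fold change was -0.02 over the 10 cyclin genes in PA-1 and -0.15 over the 9 in SK-OV-3, against -0.0019 and -0.0091 over all genes tested. The 3 libraries of each treatment did not overlap for 5 of 10 cyclin genes in PA-1 and 8 of 9 in SK-OV-3, where 27.5% and 38.8% of all genes tested did not overlap.

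**Figure D1:**
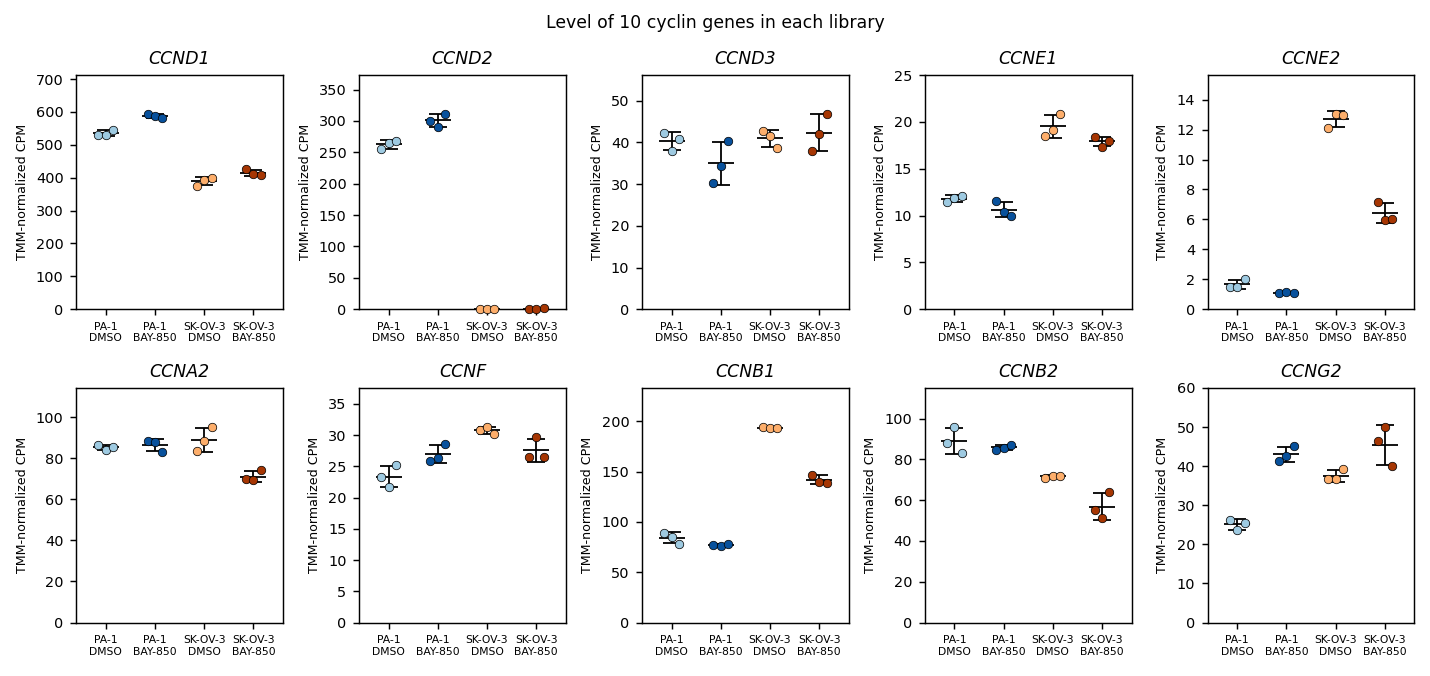
Level of each cyclin gene in the 12 libraries, in CPM normalized by TMM, with one panel per gene, a linear axis from 0, points for libraries and bars for the mean ± SD of 3. CCND2 lies at 255 to 312 CPM in PA-1 and at most 1.36 CPM in SK-OV-3, and CCNG2 rises from 23.6 to 26.3 CPM with DMSO to between 41.4 and 45.1 under BAY-850 in PA-1.

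CCND1 encodes cyclin D1, the D-type cyclin most often amplified in tumours, and lies at chr11:69641087-69654474 on the + strand (GRCh38). In PA-1 its levels were 530, 528 and 545 CPM with DMSO and 595, 589 and 582 CPM with BAY-850. In SK-OV-3 they were 375, 393 and 398 CPM with DMSO and 426, 411 and 409 CPM with BAY-850. The treated libraries lay above all vehicle libraries of their line, but the increase, 1.099-fold and 1.07-fold, passed the test in neither. The log2 fold change was 0.14 ± 0.049 (SE; adjusted p = 0.104) in PA-1 and 0.10 ± 0.046 (adjusted p = 0.151) in SK-OV-3. DESeq2 called the PA-1 difference (adjusted p = 0.0267). The responses of the lines were not distinguishable (difference -0.05, 95% confidence interval -0.17 to 0.08, adjusted p = 0.673).

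CCND2, the gene of cyclin D2, at chr12:4273772-4305350 on the + strand, was nearly confined to PA-1. Its levels there were 255, 265 and 268 CPM with DMSO and 301, 291 and 312 CPM with BAY-850, so that each treated library lay above each vehicle library. The log2 fold change was 0.19 ± 0.054 (fold 1.14, adjusted p = 0.0426), and this small call was lost on leaving out any 1 of the 6 libraries (adjusted p 0.0538 to 0.142) and when scaled by library size alone (adjusted p = 0.200). In SK-OV-3 the gene had 2, 12 and 2 counts with DMSO and 0, 10 and 73 with BAY-850. The 73 counts came from the library that stood apart, and without it the most in any SK-OV-3 library was 12. The gene did not pass the filter on low counts there, so no test was made. Between the lines with DMSO the log2 difference, SK-OV-3 against PA-1, was -10.9 (adjusted p = 3.77e-14), resting on 16 counts in SK-OV-3. It lay between -12.2 and -10.5 on leaving out 1 library. That range is far wider than the SE of 0.18 from the fit, so the SE understates the uncertainty of this difference. RSEM divided reads of CCND2 in 4 libraries, where its expected count was not whole, and the antisense gene CCND2-AS1 overlaps it, with no statement of whether the counting used strand.

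CCND3, at chr6:41934933-42050357 on the - strand, encodes cyclin D3, which is best known from lymphoid cells. It stood at 42.2, 37.9 and 40.8 CPM in PA-1 with DMSO and at 30.2, 34.3 and 40.4 CPM with BAY-850. The groups overlapped through the third treated library, and the log2 fold change of -0.21 ± 0.093 did not pass (adjusted p = 0.190). Without that library it was -0.32 and passed (adjusted p = 0.0275). In SK-OV-3 the values were 42.7, 41.4 and 38.7 CPM with DMSO and 38.0, 41.9 and 46.9 CPM with BAY-850, which overlapped (log2 fold change 0.05 ± 0.092, adjusted p = 0.730). The level with DMSO was similar in the lines, with a log2 difference of 0.03 (95% confidence interval -0.13 to 0.18, adjusted p = 0.731).

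Compared per kilobase of merged exons, CCND1 made up 71.7% ± 0.17 (SD, n = 3) of the D-type transcripts in PA-1 with DMSO, CCND2 23.8% ± 0.42 and CCND3 4.50% ± 0.25. With BAY-850 these shares were 71.7% ± 1.08, 24.7% ± 0.68 and 3.55% ± 0.51. In SK-OV-3 with DMSO, CCND1 made up 91.9% ± 0.59, CCND3 8.07% ± 0.58 and CCND2 0.0220% ± 0.024. The D-type sum was 154 ± 2.65 CPM per kilobase with DMSO and 169.9 ± 1.37 with BAY-850 in PA-1, and 87.6 ± 2.23 and 93.3 ± 1.27 in SK-OV-3. These sums were not tested. With the longest transcript as the length, CCND3 took 9.27% in PA-1 and 15.9% in SK-OV-3 with DMSO.

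**Figure D2:**
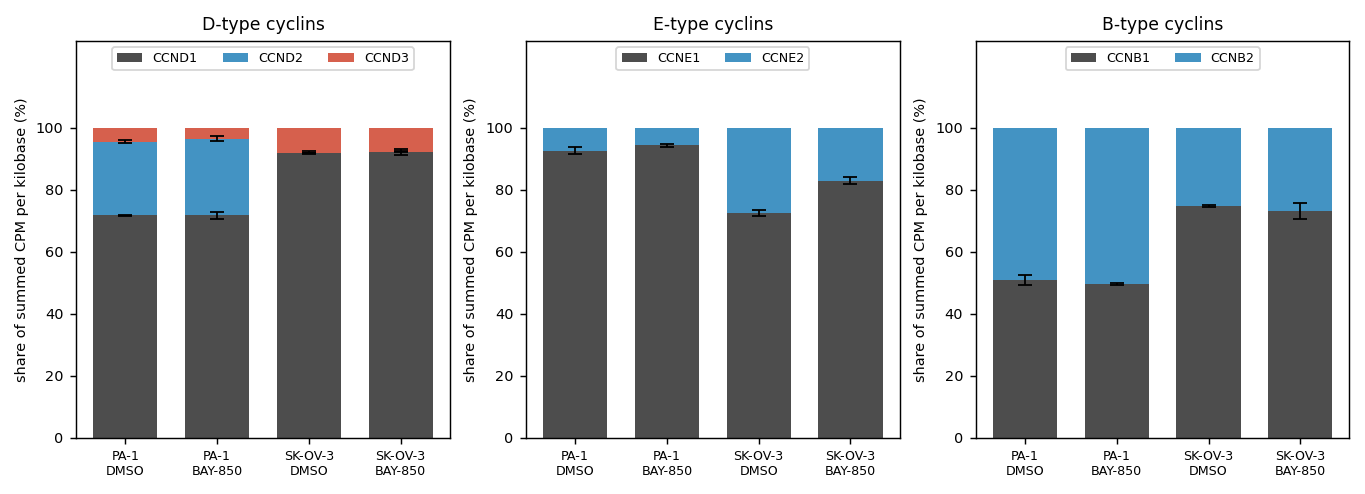
Share of each member in the summed level of its family, in percent of CPM per kilobase of merged exons, for the D-type, E-type and B-type cyclins in the 4 groups. Bars are means of 3 libraries and error bars the SD of the share of the gene below each boundary. CCNE2 takes 27.4% of the E-type sum in SK-OV-3 with DMSO and 17.1% with BAY-850.

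CCNE2, 1 of the 2 genes of cyclin E, on chromosome 8, had the largest log2 fold change in SK-OV-3 of the 9 genes tested there among these 10. Its levels fell from 12.1, 13.1 and 13.0 CPM with DMSO to 7.19, 5.98 and 6.05 CPM with BAY-850. The treated libraries were all far below the vehicle libraries, at a fold of 0.506 (log2 fold change -0.98 ± 0.13, adjusted p = 3.74e-04). Without the library that stood apart the log2 fold change was -0.96 (adjusted p = 2.26e-04). In PA-1 the gene was scarce, with 1.501, 1.47 and 2.01 CPM with DMSO and 1.09, 1.15 and 1.11 CPM with BAY-850. These libraries also did not overlap, but they rested on 42.1 to 70.8 counts each and the log2 fold change of -0.57 ± 0.30 did not pass (adjusted p = 0.271). The difference between the responses did not pass either (-0.42, 95% confidence interval -0.98 to 0.13, adjusted p = 0.310). With DMSO the gene was 7.69-fold higher in SK-OV-3 than in PA-1 (log2 difference 2.94 ± 0.17, adjusted p = 5.70e-09). Its expected count was not whole in 11 of 12 libraries, so part of its reads were divided by RSEM with other transcripts.

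CCNE1, the paralogue at chr19:29811898-29824308 on the + strand, is the E-type gene amplified in a subset of ovarian carcinomas. In SK-OV-3 it stood at 18.5, 19.1 and 20.9 CPM with DMSO and at 18.4, 17.4 and 18.01 CPM with BAY-850. The highest treated library was just below the lowest vehicle library, and the log2 fold change of -0.12 ± 0.095 did not pass (adjusted p = 0.436). In PA-1 the levels of 11.4, 11.9 and 12.1 CPM with DMSO and 11.5, 10.4 and 9.99 CPM with BAY-850 overlapped (log2 fold change -0.15 ± 0.11, adjusted p = 0.427). With DMSO, CCNE1 was 1.66-fold higher in SK-OV-3 than in PA-1 (adjusted p = 1.91e-05).

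The ratio of CCNE2 to CCNE1 counts within a library does not depend on scaling, but it can depend on GC content. The longest transcript has 36.9% GC for CCNE2 and 52.9% for CCNE1. The part of GC content in this ratio was not tested. In SK-OV-3 it was 0.653, 0.683 and 0.621 with DMSO and 0.391, 0.345 and 0.336 with BAY-850, and in PA-1 it was 0.132, 0.124 and 0.167 against 0.0959, 0.111 and 0.112. The treated libraries were the lower ones in both lines. The mean log2 ratio moved by -0.87 in SK-OV-3 and -0.40 in PA-1, each with an exact two-sided permutation p of 0.1, the smallest that 3 against 3 can give, and 0.267 after adjustment over the 8 ratio tests. Per kilobase, CCNE2 was 27.4% ± 0.94 of the E-type sum in SK-OV-3 with DMSO and 17.1% ± 1.17 with BAY-850, against 7.51% ± 1.13 and 5.76% ± 0.47 in PA-1.

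**Figure D3:**
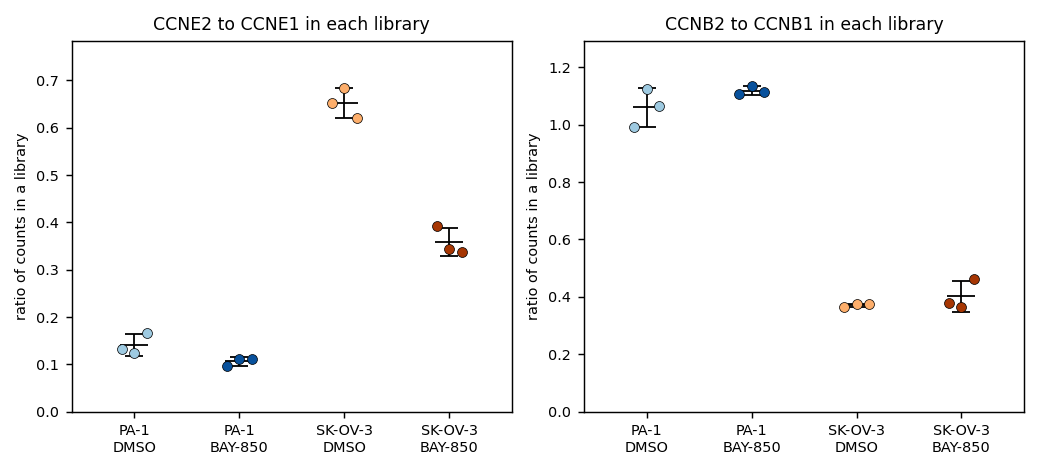
Ratio of the counts of CCNE2 to CCNE1 (left) and of CCNB2 to CCNB1 (right) within each of the 12 libraries, on linear axes from 0, with points for libraries and bars for the mean ± SD of 3. The CCNE2 ratio in SK-OV-3 is 0.621 to 0.683 with DMSO and 0.336 to 0.391 with BAY-850, while the CCNB2 ratio overlaps between the treatments in both lines.

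Before the values of the later cyclins, DNA upstream of their RefSeq starts is shown, because CCNA2, CCNB1 and CCNB2 were called together in SK-OV-3 and genes of G2 and mitosis are known for CCAAT boxes and for CHR elements, the site of the MuvB complexes. RefSeq windows of 250 bases before to 50 after the start (GRCh38.p14) were at hand for 7 of the 10 genes. The letters TTTGAA and TTCGAA (CHR), CCAAT, TTTNNCGC (E2F-like) and GTAAACA (forkhead) were searched on both strands, and matches of different motifs did not overlap in these windows. Other spellings of these sites were not searched, so a stretch without capitals can still hold one, in CCNA2 and CCNG2 as well. TTTGAA was in 15.2% of the 35116 windows searched over all genes, TTCGAA in 1.45%, CCAAT in 34.6%, TTTNNCGC in 6.89% and GTAAACA in 3.42%. CCNF and CCNG2, which were not called lower there, are shown for comparison. The lines below run 5′ to 3′ along the gene, with matches in capitals and positions counted from the RefSeq start. All 5 genes shown begin further upstream in the GENCODE annotation. Both CCNB1 stretches and the second CCNB2 stretch lie within the gene coordinates given for them, and the other stretches end just before the GENCODE start.
CCNA2, chr4:121823934-121824013, - strand, bases -130 to -51: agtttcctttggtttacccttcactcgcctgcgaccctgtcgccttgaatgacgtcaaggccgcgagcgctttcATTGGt
CCNF, chr16:2429317-2429393, + strand, bases -130 to -54: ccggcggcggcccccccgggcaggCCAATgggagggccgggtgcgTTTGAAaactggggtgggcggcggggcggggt
CCNB1, chr5:69167051-69167080, + strand, bases -99 to -70: gaccggcagccgCCAATgggaagggagtga
CCNB1, chr5:69167083-69167112, + strand, bases -67 to -38: gccacgaacaggCCAATaaggagggagcag
CCNB2, chr15:59105016-59105077, + strand, bases -130 to -69: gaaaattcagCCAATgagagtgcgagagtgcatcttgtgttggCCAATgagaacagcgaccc
CCNB2, chr15:59105105-59105134, + strand, bases -41 to -12: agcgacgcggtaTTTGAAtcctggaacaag
CCNG2, chr4:77157077-77157150, + strand, bases -130 to -57: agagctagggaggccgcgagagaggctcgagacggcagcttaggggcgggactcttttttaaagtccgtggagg

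In its window CCNB2 held CCAAT at -244, -120, -87 and -54 and TTTGAA at -29. CCNB1 held CCAAT at -87 and -55, and CCNA2 held 1 at -56, on the reverse strand and so printed as ATTGG. CCNF held CCAAT at -250, -239, -210 and -106, TTTGAA at -85, TTCGAA at -233 and TTTNNCGC at -170 on the reverse strand. None of the 5 motifs was in the windows of CCNE1 or CCNG2. CCND3 has 3 windows, of which 1 held GTAAACA and each of the others a CCAAT. The match of letters is a description and not evidence of binding.

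CCNA2, at chr4:121816444-121823933 on the - strand, encodes cyclin A2. BAY-850 lowered its level in SK-OV-3, from 83.6, 88.1 and 95.2 CPM with DMSO to 69.6, 69.1 and 74.3 CPM. The groups were separate, with a fold of 0.802 (log2 fold change -0.32 ± 0.069, adjusted p = 0.00731), and without the library that stood apart the log2 fold change was -0.37 (adjusted p = 0.00169). In PA-1 the levels were 86.2, 84.1 and 85.3 CPM with DMSO and 88.3, 87.8 and 83.1 CPM with BAY-850, which overlapped. The log2 fold change there was 0.02, with a 95% confidence interval of -0.10 to 0.14 (adjusted p = 0.892), and its sign turned under scaling by library size alone. The responses of the lines differed by -0.35 ± 0.083 on the log2 scale (adjusted p = 0.0112), a call that was lost under scaling by library size alone (-0.30, adjusted p = 0.0949). The expected count of CCNA2 was not whole in 10 of 12 libraries. The level with DMSO was not distinguishable between the lines (log2 difference 0.07, 95% confidence interval -0.07 to 0.20, adjusted p = 0.343).

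CCNF, at chr16:2429394-2458854 on the + strand, encodes cyclin F, which binds no CDK and serves as the substrate receptor of an SCF ubiquitin ligase. In PA-1 its levels were 23.2, 21.7 and 25.2 CPM with DMSO and 25.9, 26.3 and 28.6 CPM with BAY-850. In SK-OV-3 they were 30.8, 31.3 and 30.2 CPM with DMSO and 26.5, 29.7 and 26.5 CPM with BAY-850. The treated libraries were the higher ones in PA-1 and the lower ones in SK-OV-3. Neither change passed on its own, with log2 fold changes of 0.20 ± 0.082 (adjusted p = 0.147) and -0.15 ± 0.079 (adjusted p = 0.203). The difference between them did pass (-0.37 ± 0.11, adjusted p = 0.0431), but it was lost without the library that stood apart (-0.34, adjusted p = 0.0582), without any of 9 of the other 11 libraries, under library size alone (-0.32, adjusted p = 0.123) and with the trend on GC content removed (-0.30, adjusted p = 0.0614). Of the 10 alternatives that kept every library, 4 called this difference. Across all genes the interaction was called for 14.5% of 16830, and for 4 of the 10 cyclin genes, all with the lower value in SK-OV-3 (7.77% of all genes, with 6.7% higher).

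CCNB1, at chr5:69167010-69178245 on the + strand, encodes cyclin B1, the partner of CDK1 at the entry into mitosis. Its levels in SK-OV-3 were 194, 193 and 193 CPM with DMSO and 147, 140 and 138 CPM with BAY-850. The vehicle libraries lay close together and the treated ones were all lower, at a fold of 0.736 (log2 fold change -0.44 ± 0.049, adjusted p = 9.42e-05), and without the library that stood apart the log2 fold change was again -0.44 (adjusted p = 8.24e-05). In PA-1 the levels of 89.0, 85.3 and 78.1 CPM with DMSO and 76.7, 75.5 and 78.5 CPM with BAY-850 overlapped at 1 library, and the log2 fold change of -0.13 ± 0.062 did not pass (adjusted p = 0.212). The responses differed by -0.32 ± 0.076 (adjusted p = 0.0102), and this call was kept in all 12 fits that left out 1 library. With DMSO, CCNB1 was 2.30-fold higher in SK-OV-3 than in PA-1 (log2 difference 1.203 ± 0.059, adjusted p = 9.53e-10).

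CCNB2, at chr15:59105078-59125045 on the + strand, encodes cyclin B2, which is found mainly at the Golgi apparatus. In SK-OV-3 it fell from 71.0, 72.1 and 72.1 CPM with DMSO to 55.3, 51.1 and 64.0 CPM with BAY-850. The library that stood apart was the highest of the treated ones, still below all vehicle libraries. The log2 fold change was -0.33 ± 0.087 (fold 0.798, adjusted p = 0.0216) with it and -0.44 (adjusted p = 3.77e-04) without it, while leaving out any of the other 5 libraries ended the call (adjusted p 0.0559 to 0.0851). In PA-1 the levels were 88.2, 95.9 and 83.1 CPM with DMSO and 84.8, 85.8 and 87.3 CPM with BAY-850. The treated values lay within the range of the vehicle values, and the log2 fold change was -0.05 (95% confidence interval -0.19 to 0.08, adjusted p = 0.649). The difference between the responses, -0.28 ± 0.11, did not pass (adjusted p = 0.0869), but it did without the library that stood apart (-0.38, adjusted p = 0.00856). Unlike CCNB1, CCNB2 was lower in SK-OV-3 than in PA-1 with DMSO, at a fold of 0.807 (adjusted p = 5.88e-04).

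The B-type pair was balanced in PA-1 and not in SK-OV-3. CCNB1 made up 50.9% ± 1.58 of the B-type sum per kilobase in PA-1 with DMSO and 74.7% ± 0.24 in SK-OV-3, and 49.5% ± 0.35 and 73.2% ± 2.55 with BAY-850. The ratio of CCNB2 to CCNB1 counts was 0.991, 1.124 and 1.06 in PA-1 with DMSO against 1.11, 1.14 and 1.11 with BAY-850. In SK-OV-3 it was 0.366, 0.374 and 0.374 against 0.377, 0.365 and 0.463. The ranges overlapped in both lines (exact permutation p = 0.3 and 0.5).

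CCNG2, at chr4:77157151-77433388 on the + strand, encodes cyclin G2, a FOXO-regulated gene that is high in quiescent cells. It had the largest log2 fold change of these 10 genes in PA-1. Its levels were 26.3, 23.6 and 25.4 CPM with DMSO and 41.4, 42.6 and 45.1 CPM with BAY-850. The groups were far apart, with a fold of 1.71 (log2 fold change 0.78 ± 0.072, adjusted p = 8.04e-06), and the call was kept in all 6 fits that left out 1 library. In PA-1 the fold changes of all genes rose with GC content (Spearman's rho 0.365 across genes, which are not independent replicates). With that trend removed the log2 fold change of CCNG2 was 0.85 (adjusted p = 2.81e-06). In SK-OV-3 the levels were 36.7, 36.6 and 39.2 CPM with DMSO and 46.5, 50.03 and 40.01 CPM with BAY-850. The treated library that stood apart was only just above the vehicle libraries. The log2 fold change was 0.28 ± 0.083 (adjusted p = 0.0325) with it and 0.36 (adjusted p = 0.00283) without it, and leaving out any of the other 5 libraries ended the call (adjusted p 0.0624 to 0.143). The response was smaller in SK-OV-3 by 0.50 ± 0.12 on the log2 scale (difference -0.50, adjusted p = 0.00928), and with DMSO the gene was 1.499-fold higher there than in PA-1 (adjusted p = 1.31e-05).

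**Figure D4:**
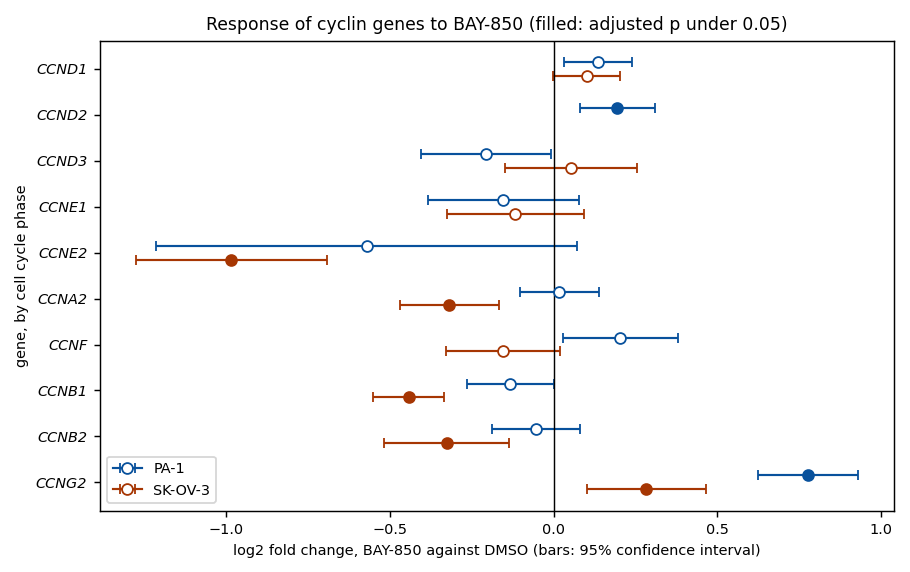
Log2 fold change with BAY-850 against DMSO for each cyclin gene in PA-1 (blue) and SK-OV-3 (brown), with 95% confidence intervals from edgeR's quasi-likelihood fit and filled points where the adjusted p is under 0.05. CCNE2, CCNA2, CCNB1 and CCNB2 are filled on the negative side in SK-OV-3 (-0.98 to -0.32) and open in PA-1, CCND2 has no SK-OV-3 point, and CCNG2 is filled on the positive side in both lines.

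With DMSO, 8 of the 10 cyclin genes differed between the lines, as did 80.3% of all 16070 genes tested (40.1% higher in SK-OV-3, 40.2% lower). The vehicle libraries of the lines did not overlap for the same 8 genes, where 82.3% of all genes tested did not. CCNE1, CCNE2, CCNB1, CCNF and CCNG2 were higher in SK-OV-3, and CCND1, CCND2 and CCNB2 were lower. Cyclin F was 1.32-fold higher (adjusted p = 5.48e-04) and cyclin D1 lower at a fold of 0.729 (adjusted p = 2.09e-06). In levels per kilobase of merged exons, CCND1 was the highest cyclin gene in each group, at 111 CPM per kilobase in PA-1 and 80.5 in SK-OV-3 with DMSO. It was followed in PA-1 by CCND2 (36.7), CCNB1 (32.9 ± 2.17), CCNB2 (31.8 ± 2.30) and CCNA2 (30.5 ± 0.39), the last 3 overlapping over their libraries, and then by CCND3 (6.94), CCNE1 (4.63), CCNF (3.70), CCNG2 (3.36) and CCNE2 (0.377). In SK-OV-3 the order was CCND1, CCNB1 (75.6), CCNA2 (31.8), CCNB2 (25.6), CCNE1 (7.65 ± 0.48), CCND3 (7.06 ± 0.35), CCNG2 (5.02), CCNF (4.88), CCNE2 (2.89) and CCND2 (0.0194). Of these neighbours, CCNE1 and CCND3 overlapped in SK-OV-3, as did CCNG2 with CCNF in both lines. The position of CCND3 depends on the length used, since its longest transcript has 2394 bases and its merged exons 5802.

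For each cyclin gene tested in both lines, 1 other gene was sought whose 12 log2 levels followed it most closely, by the root mean square difference after centring, among 11228 genes of at least 5 CPM. The nearest to CCNA2 was TTC3 (0.048, where the median gene was at 0.38), the nearest to CCNB1 was PRDX1 (0.066), to CCNB2 LEO1 (0.076) and to CCNF SORBS3 (0.067). CCNG2 lay closest to BHLHE40 (0.092, where the median gene was at 0.49), whose log2 fold change was 0.87 in PA-1 and 0.41 in SK-OV-3. CCND1 lay closest to TCEA1 (0.052), CCND3 to C14orf119 (0.069) and CCNE1 to ETF1 (0.069). For CCNE2 the nearest, TGFBI, was at 0.23, with a log2 fold change of -1.09 in SK-OV-3.

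Of the other cyclins, which include those of transcription and splicing, 20 were in the table and 18 were tested in each line, and 2 were called in each, where 7.13% of all genes were called in PA-1 and 20.4% in SK-OV-3. DESeq2 called 5 of the 18 in PA-1 and 2 in SK-OV-3. In PA-1, 2 were downregulated, CCNH, the cyclin of the CDK-activating kinase (-0.32 ± 0.068, adjusted p = 0.0112), and CCNL1, a cyclin of splicing (-0.25 ± 0.067, adjusted p = 0.0404). CCNL1 was not called under library size alone. With the trend on GC content removed neither was called, and 1 other gene was called higher. CCNH was lost without PA-1 DMSO replicate 1 and without PA-1 BAY-850 replicate 1. CCNL1 was lost without PA-1 DMSO replicates 2 or 3 and without PA-1 BAY-850 replicates 1 or 2. In SK-OV-3, CCNA1, the germ line relative of CCNA2, fell from 73.7, 71.0 and 72.0 CPM to 36.6, 39.0 and 32.8 CPM (-0.99 ± 0.070, adjusted p = 2.91e-06). CCNG1, known from other cells as a p53 target, rose there (0.29 ± 0.057, adjusted p = 0.00391). The study states that p53 is deleted in SK-OV-3, and the cause of the rise was not tested. The medians over the 18 genes were -0.01 in PA-1 and -0.02 in SK-OV-3.

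Of 9 CDKs and their CKS or MAT1 subunits, 2 fell in PA-1, where 2.48% of all genes were lower, and 1 fell and 1 rose in SK-OV-3, where 9.56% were lower and 10.8% higher. CDK1, the partner of the B-type cyclins, was at 147, 151 and 144 CPM in PA-1 with DMSO and at 117, 122 and 125 CPM with BAY-850 (-0.28 ± 0.055, adjusted p = 0.00727). MNAT1, which assembles the CDK-activating kinase with CCNH, fell as well (-0.34 ± 0.069, adjusted p = 0.00862). Neither CDK1 nor MNAT1 was called in PA-1 with the trend on GC content removed or without PA-1 DMSO replicate 2. In SK-OV-3, CDK2, the partner of the E-type cyclins, fell (-0.27 ± 0.077, adjusted p = 0.0305) and CKS2 rose (0.22 ± 0.057, adjusted p = 0.0171). The call of CDK2 was lost under library size alone. Of the fits that left out 1 SK-OV-3 library, only that without BAY-850 replicate 3 kept CDK2. CKS2 was lost without SK-OV-3 DMSO replicate 2 and without SK-OV-3 DMSO replicate 3. The medians were -0.09 and 0.03.

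Among the CDK inhibitors, CDKN1C (p57) was upregulated in both lines. Its levels were 31.8, 29.1 and 26.6 CPM with DMSO and 64.8, 67.3 and 74.8 CPM after treatment in PA-1 (1.24 ± 0.079, adjusted p = 1.19e-07). In SK-OV-3 they were 23.0, 21.9 and 19.8 CPM against 33.1, 35.6 and 33.8 CPM (0.67 ± 0.086, adjusted p = 2.65e-04). It was the only one of 7 called in PA-1, where 7.13% of all genes were called and the median of the 7 was 0.16. In SK-OV-3, 4 of 5 tested were called, against 20.4% of all genes, the others being CDKN1A (p21; 0.64 ± 0.12, adjusted p = 0.00264), CDKN1B (p27; 0.44 ± 0.083, adjusted p = 0.00359) and, downward, CDKN2C (p18; -0.50 ± 0.073, adjusted p = 7.08e-04). CDKN1B is named here after its value was seen, beyond the 3 genes of smallest p per list.

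The phosphatases and kinases that set CDK activity gave 1 call of 5 in each line, where 7.13% of all genes were called in PA-1 and 20.4% in SK-OV-3. CDC25B, a phosphatase that activates CDK1, rose in PA-1 (0.43 ± 0.062, adjusted p = 6.74e-04), and CDC25A, its relative of the G1 to S step, fell in SK-OV-3 (-0.88 ± 0.12, adjusted p = 4.36e-04). Of 14 genes of cyclin turnover, edgeR called 0 in PA-1, where 7.13% of all genes were called, while 2 had an unadjusted p under 0.05 and DESeq2 called 1, SKP1. In SK-OV-3, where 9.56% of all genes were lower, 3 of the 14 fell: CDC20, the mitotic activator of the APC/C (-0.43 ± 0.056, adjusted p = 2.92e-04), SKP1 (-0.20 ± 0.049, adjusted p = 0.0147) and SKP2, a receptor of the SCF ligase (-0.34 ± 0.10, adjusted p = 0.0361). Of these 14, 5 were called without the library that stood apart, and 1, CDC20, without the second SK-OV-3 library with BAY-850. SKP1, SKP2 or both were lost without any of the other 5 libraries of SK-OV-3.

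Of 20 genes of the RB, E2F and MuvB group, 7 fell and 1 rose in SK-OV-3, where 9.56% of all genes were lower, and the median was -0.19. The smallest p values were those of MYBL2, the B-MYB factor (-0.51 ± 0.050, adjusted p = 3.79e-05), FOXM1, the forkhead factor of G2 genes (-0.61 ± 0.067, adjusted p = 8.92e-05), and E2F1 (-0.67 ± 0.075, adjusted p = 9.94e-05). The rise was lost without SK-OV-3 DMSO replicate 1, 2 or 3 and without SK-OV-3 BAY-850 replicate 2. At least 1 of the falls was lost in each of these fits too. MYBL2, FOXM1 and E2F1 were kept in every fit that left out 1 SK-OV-3 library. In PA-1, 1 rose and 1 fell, where 4.65% of all genes were higher and 2.48% lower, with a median of -0.02. Neither was called under library size alone or with the trend on GC content removed. Leaving out PA-1 DMSO replicate 1, PA-1 DMSO replicate 2 or PA-1 BAY-850 replicate 2 also ended both calls. MYBL2 rose there (0.23 ± 0.061, adjusted p = 0.0343), from 154, 150 and 168 CPM to 177, 185 and 193 CPM, whereas in SK-OV-3 it went from 199, 191 and 194 CPM to 141, 134 and 133 CPM. The difference between these responses of MYBL2 was -0.75 ± 0.077 (adjusted p = 1.31e-05). E2F6, a repressive E2F, fell in PA-1 (-0.22 ± 0.058, adjusted p = 0.0370). Without the library that stood apart, the calls in SK-OV-3 of these 6 lists of genes were all kept, with CDK2 (adjusted p = 0.0441) and SKP2 (adjusted p = 0.0482) nearest to the threshold.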

How the data were processed

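The values are expected counts for each gene symbol, deposited without normalization; per the labels, the submitters' processing notes name Bowtie2 2.1.0, RSEM 1.2.15 and the build hg38, and the annotation is not given in the sources used here. RSEM divides reads that could come from several genes, and libraries are stranded. The labels describe oligo-dT selection, while the series' design text names depletion of ribosomal RNA. The cyclin genes and the lists were chosen with earlier results of these data known. Expected counts were rounded and tested with edgeR 4.0.16 (R 4.3.3): TMM factors, edgeR's filter on low counts, the quasi-likelihood test within each line, an interaction fit of 12 libraries, and Benjamini-Hochberg adjustment over all genes tested. The SE is the log2 fold change divided by the square root of F, and ± after a log2 value is this SE. CPM was computed from the deposited expected counts with factors over all libraries, and ± after a level or share is the SD of 3. Lengths are merged exons of the GENCODE annotation of GRCh38, and promoter windows are RefSeq's (GRCh38.p14), without those of chromosome 8. Ratios of 2 genes within a library used log2 after adding 0.5 counts, with exact permutation tests. The named genes are the 10 cyclins in every comparison, the nearest gene of each, and at most 3 genes per list and line of smallest adjusted p under 0.05. Alternatives were DESeq2 1.42.0, limma-voom (limma 3.58.1), other scalings and filters, a GC correction (loess span 0.5), a replicate block, 1 fit of all libraries and leaving out each library. The test was also tested on simulated data with known changes. P-values measure the spread between replicates only. No count column was left without a sample.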

Additional observations from a re-analysis of the deposited data

Results flagged for a closer look

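The response to BAY-850 differed between the lines, by the interaction test of edgeR at an adjusted p under 0.05, for 4 cyclin genes. The log2 response in SK-OV-3 minus that in PA-1 was -0.35 for CCNA2 (adjusted p = 0.0112), which was lower in 3 of 3 treated SK-OV-3 libraries than in all vehicle libraries and overlapped in PA-1. It was -0.32 for CCNB1 (adjusted p = 0.0102) and -0.50 for CCNG2 (adjusted p = 0.00928), a gene that was higher in 3 of 3 treated libraries of each line. It was -0.37 for CCNF (adjusted p = 0.0431), where the treated libraries lay above the vehicle libraries in PA-1 and below them in SK-OV-3. Under scaling by library size alone CCNA2 (adjusted p = 0.0949) and CCNF (adjusted p = 0.123) were no longer called. CCNF was also lost in 10 of 12 fits that left out 1 library and with the trend on GC content removed (adjusted p = 0.0614). Of the 10 alternatives that kept every library, 4 called CCNF. The cause of these differences was not tested.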

How the results depend on the processing

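Of the 10 cyclin genes, 2 were called in PA-1, 5 in SK-OV-3, 4 in the interaction and 8 between the lines with DMSO. The PA-1 count was 1, with CCND2 lost, under library size alone (1), library size without rRNA genes (1) and all 12 libraries in one fit (1), and 1 to 2 on leaving out 1 library. The SK-OV-3 count was 3 to 5 on leaving out 1 library, with CCNB2 and CCNG2 lost in 5 of the 6 fits. The interaction count was 2 under library size alone, with CCNA2 and CCNF lost, and 3 to 4 on leaving out 1 library, and CCND2 entered it without the first SK-OV-3 library with BAY-850 (2.43, adjusted p = 0.0304). CCNE2, CCNA2 and CCNB1 in SK-OV-3 and CCNG2 in PA-1 were called under every alternative run.

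Values that changed sign were near 0 or, for CCND2, near the limit of the counts. CCNA2 in PA-1 was -0.019 under library size alone and -0.0026 without rRNA genes. On leaving out 1 library, CCNB2 in PA-1 lay between -0.10 and 0.0015, and CCND3 in SK-OV-3 between -0.042 (without BAY-850 replicate 3) and 0.13. In the interaction CCND1 was 0.01 with the GC trend removed (0.0116, and 0.0118 with the replicate block), CCND2 lay between -0.38 (without SK-OV-3 BAY-850 replicate 3) and 3.30, and CCNE1 between -0.020 and 0.087 on leaving out 1 library. CCND3 between the lines lay between -0.019 and 0.075. Leaving out 1 library moved the log2 ratio of CCND2 to CCND1 in SK-OV-3 between -1.10 and 2.33 and that of CCND3 to CCND1 between -0.14 and 0.039. The cause of the changes was not tested.

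The deviations of same-numbered libraries from their group means correlated at -0.086 to 0.105 in PA-1 and 0.023 to 0.092 in SK-OV-3. Those of differently numbered libraries correlated at -0.274 to 0.197 in PA-1 and -0.107 to 0.083 in SK-OV-3. With 3 libraries per group these values cannot show whether the numbers pair the samples. With the replicate number as a block, 1 cyclin gene was called in PA-1, 4 in SK-OV-3, 3 in the interaction and 8 between the lines, and the within-pair difference of the CCNE2 to CCNE1 log2 ratio in SK-OV-3 stayed at -0.87 (exact p = 0.25, the smallest 3 pairs can give). The lengths of the longest transcripts moved 34 of 40 group levels per kilobase by more than 1 SD. Counts of 42.1 to 70.8 limit CCNE2 in PA-1, and CCND2 in SK-OV-3 lies near the floor of 3 counts.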
